A study of Mus musculus with 2 samples.

Results

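The genes described here are 32 interferon-stimulated genes, chosen by name as a set that cells switch on after type I interferon, of which 30 were found by symbol among the 32285 genes listed and are called members below. Mx1 and Mx2 were not analysed here. The members were measured by droplet single-cell RNA sequencing (10x 3' chemistry) in tumours that CMT167R cells, which the labels call anti-PD1 resistant cells of genotype WT, formed under the skin of C57BL/6 mice. One library came from mice given control solvent, the other from mice that received PKCi, a compound the labels name no further, i.p. each day at 3 mg/kg; both groups carried the same cells, and tumours were taken when the controls had reached 400 mm3 and the volumes of the groups differed. The parent line CMT167 is a mouse lung carcinoma line, CMT167R is a single line, and the number of mice behind each library is not given in the labels. The title of the series asks how PKC signalling and XIAP bear on resistance to immunotherapy and on an immunogenic state of the tumour. With 1 library per group no difference has a replicate check and no test between groups was possible. Intervals are 95% intervals that cover counting error only.

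Type I interferons bind the receptor chains IFNAR1 and IFNAR2, and the kinases JAK1 and TYK2 then activate transcription factors, among them STAT2. With IRF9 these form a complex that binds interferon-stimulated response elements in the promoters of the genes listed here, many of which restrict viruses or sense their nucleic acids. Interferon gamma acts through its own receptor and raises a partly overlapping set that includes the guanylate-binding proteins. In tumours both kinds of response can be seen in carcinoma cells and in the leukocytes around them.

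After filtering, 6269 control and 7078 PKCi cells were kept, with medians of 32992 and 29550.5 unique molecular identifiers (UMIs, the count of captured RNA molecules). Cells were grouped into 9 named classes from marker genes, with the members and the other interferon genes left out of the genes used for clustering. The Krt8-positive population, which holds most cells, had 4851 control and 5348 PKCi cells. Its level of the epithelial keratin gene Krt8 was 382 and 481 CPM, which is UMIs scaled to 1000000 over a whole class of cells, and its level of the leukocyte gene Ptprc 0.958 and 1.17 CPM. The X-inactivation RNA Xist, which marks cells of female mice, stood at 0.913 and 0.850 CPM there. The keratin Krt18 was nearly absent, at 6.87 and 4.55 CPM, so the class keeps a neutral name. Leukocyte classes were monocyte-like (565 and 480 cells), macrophage-like (161 and 509), neutrophil-like (295 and 188), T-like (65 and 119), NK-like (36 and 51) and dendritic-like (28 and 69). Endothelial-like cells numbered 34 and 50 and fibroblast-like cells 61 and 28. Fibroblast-like cells carried Krt8 at 212 and 111 CPM, and neutrophil-like cells at 122 and 291 CPM; monocyte-like cells had 25.8 and 31.4 CPM of it. The libraries shared 18 barcodes among the kept cells.

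The regulatory sequence ahead of the members is shown first, and its part in which cells held members was not tested. RefSeq promoter windows of GRCm38.p6, 250 bases before to 50 after a start site, were matched for 22 of the 32 members. The interferon-stimulated response element was searched as GAAA, any 2 bases and GAAA, and on the other strand as TTTC, any 2 bases and TTTC. It stood in a window of 12 of the 22 members (54.5%), of 12 of 31 further interferon-stimulated genes (38.7%), of 10 of 12 genes of the interferon gamma list (83.3%) and of 3.99% of all 27025 genes with a window. The gamma-activated site, TTCNNNGAA, reads the same on both strands. It stood in 22.7% of the members, 16.1% of the further interferon-stimulated genes, 50% of the interferon gamma list and 9.55% of all genes. A stretch can match both motifs. The stretches from 200 to 51 bases before the start site are shown for 7 members that have a match there and that carry the results, 5′ to 3′ on the gene's strand, with each match of the response element in capitals.
Isg15: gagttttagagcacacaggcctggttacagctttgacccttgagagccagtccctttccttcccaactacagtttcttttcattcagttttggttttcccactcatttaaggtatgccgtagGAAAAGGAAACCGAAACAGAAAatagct
Ifit1: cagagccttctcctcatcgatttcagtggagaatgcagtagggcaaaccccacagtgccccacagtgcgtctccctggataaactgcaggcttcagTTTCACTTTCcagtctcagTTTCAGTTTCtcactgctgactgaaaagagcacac
Ifit3: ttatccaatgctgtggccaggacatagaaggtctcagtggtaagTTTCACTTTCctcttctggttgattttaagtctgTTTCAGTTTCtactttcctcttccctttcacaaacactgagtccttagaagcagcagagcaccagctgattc
Ifit3b: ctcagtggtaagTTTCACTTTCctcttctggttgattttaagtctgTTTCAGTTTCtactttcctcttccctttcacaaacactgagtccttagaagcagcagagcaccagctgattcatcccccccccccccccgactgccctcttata
Rsad2: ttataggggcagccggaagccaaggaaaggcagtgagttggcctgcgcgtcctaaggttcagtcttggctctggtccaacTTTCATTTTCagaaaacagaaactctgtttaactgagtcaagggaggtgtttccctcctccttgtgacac
Bst2: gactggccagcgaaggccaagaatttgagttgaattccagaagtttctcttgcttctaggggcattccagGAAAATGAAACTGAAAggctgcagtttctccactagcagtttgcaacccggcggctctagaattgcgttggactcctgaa
Ifi205: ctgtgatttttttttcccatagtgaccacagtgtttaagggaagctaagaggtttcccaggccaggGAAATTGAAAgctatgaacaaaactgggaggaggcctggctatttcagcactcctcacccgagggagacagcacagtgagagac

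The stretch of Isg15 lies at chr4:156200869-156201018 (minus strand) and holds 3 overlapping matches, the first of them 78 bases before the start site. Those of Ifit1 (chr19:34640689-34640838, plus strand), Ifit3 (chr19:34583329-34583478, plus strand) and Ifit3b (chr19:34607757-34607906, plus strand) hold 2 matches each. The windows of Ifit3 and Ifit3b, neighbouring copies, were equal at 201 of 268 bases once shifted by 32 bases, a count that allowed no gaps. In the stretches shown, the part that both hold, with both matches, was the same base for base. Rsad2 (chr12:26456503-26456652, minus strand) has 1 match, Bst2 (chr8:71537523-71537672, minus strand) 2 overlapping matches and Ifi205 (chr1:174031806-174031955, minus strand) 1. Windows of Herc6, Ifit2, Cmpk2, Isg20, Oasl1, Oasl2, Irf7, Irf9, Dtx3l and Ifi44 held no match to these letters, which says nothing of elements elsewhere.

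Bst2 apart, the members taken as a sum were lowest in the Krt8-positive population, and the class with the highest level of a member was always another one. Bst2, which encodes tetherin, a membrane protein that holds budding virus particles on the cell, was at 377 and 385 CPM in control and PKCi Krt8-positive cells and made up 70.7% and 69.1% of all member UMIs there. The level of Bst2 was 157 and 129 CPM in monocyte-like cells and 522 and 505 CPM in endothelial-like cells. The other 29 members together were at 156 CPM (154 to 158) and 172 CPM (170 to 174) in Krt8-positive cells. In the same 29 genes, monocyte-like cells reached 1436 and 1018 CPM, macrophage-like cells 857 and 968 CPM and neutrophil-like cells 989 and 1255 CPM. T-like cells had the highest sum in both libraries, at 2294 CPM (2157 to 2439) and 2559 CPM (2437 to 2686), and NK-like cells the lowest among leukocytes, at 268 and 442 CPM. Macrophage markers in T-like cells summed to 28.8 CPM in the control and 394 CPM in the PKCi library, and their part in the T-like values was not tested.

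Among the 29, the order of the classes was not the same in both libraries. Fibroblast-like cells stood at 428 CPM in the control library and at 2138 CPM in the PKCi library, dendritic-like cells at 1631 and 945 CPM, and endothelial-like cells at 767 and 1091 CPM. Each of these classes had fewer than 100 cells in each library, so their libraries were not compared. The dendritic-like class also held markers of plasmacytoid dendritic cells. Of 5 such markers, 0 in the control and 4 in the PKCi library reached 50 CPM, and Siglech was at 16.0 and 65.7 CPM. Only Krt8-positive, monocyte-like, macrophage-like and neutrophil-like cells were compared between the libraries. In bulk sums such as these, fewer cells holding a gene and less RNA per cell cannot be told apart, which is why counts per cell are given further on.

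**Figure D1:**
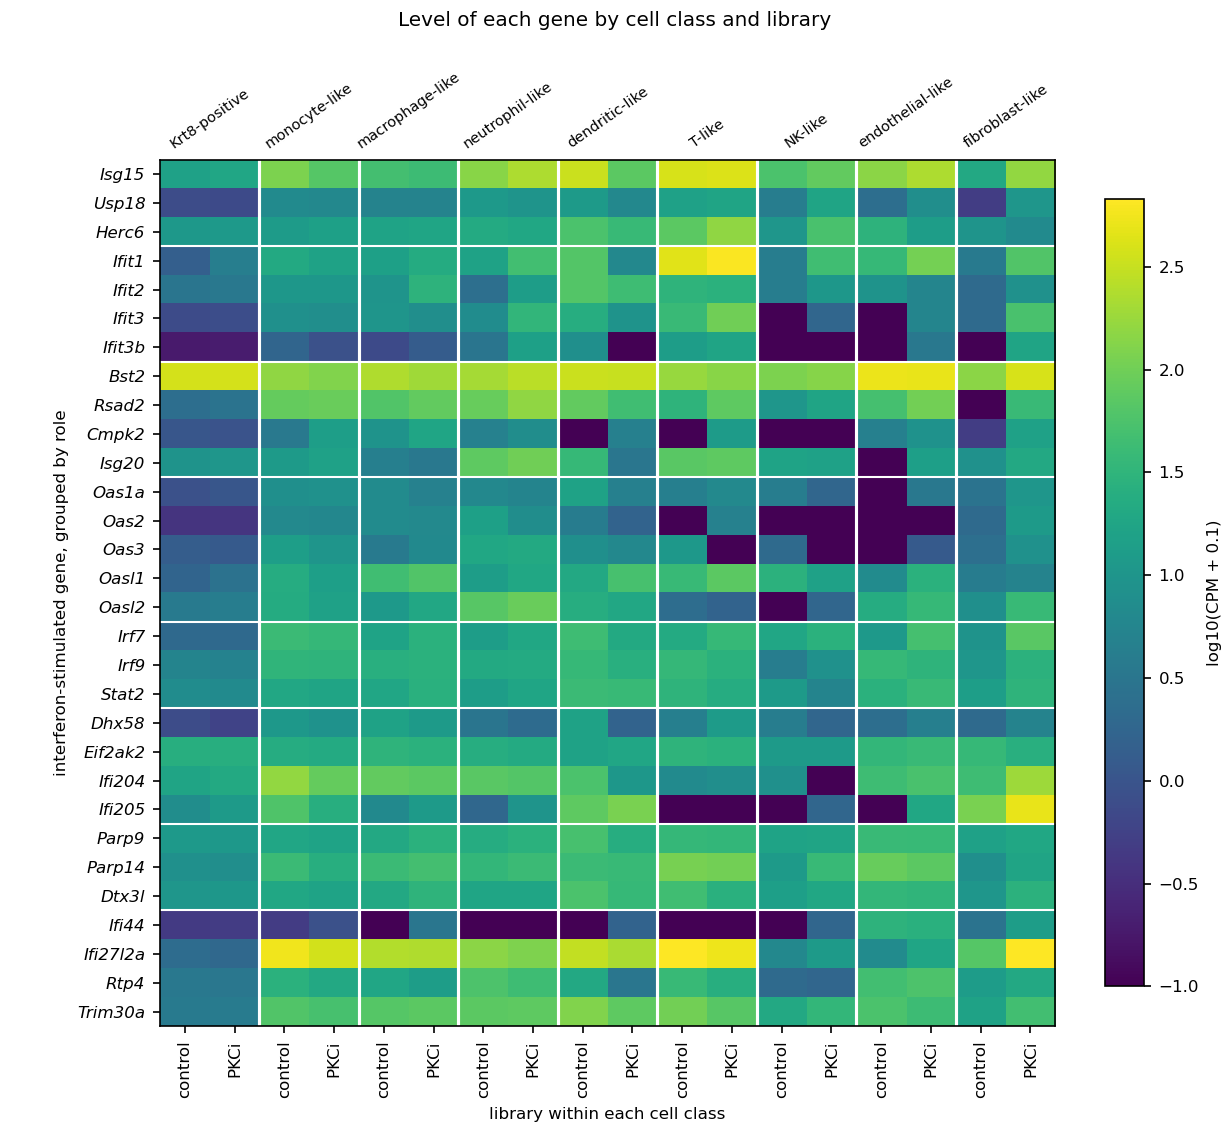
Level of the 30 members (rows, grouped by role with white lines) in 9 cell classes, each with the control and the PKCi library (columns), as log10(CPM + 0.1) from the summed UMIs of the class. Bst2 is bright in Krt8-positive cells (377 and 385 CPM), Ifit1 in T-like cells (452 and 631 CPM), and the darkest cells are genes with 0 UMIs in classes of few cells.

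By role, the most abundant member differed between classes. Of the ISG15 system, Isg15, a ubiquitin-like protein that is joined to other proteins during the response, was at 15.4 and 18.3 CPM in Krt8-positive cells, 120 and 65.1 CPM in monocyte-like cells and 397 and 426 CPM in T-like cells. Its protease gene Usp18 and the ligase gene Herc6 were lower, at 0.669 and 0.621 CPM and at 10.7 and 11.6 CPM in Krt8-positive cells. Among the IFIT genes, whose proteins bind viral RNA, Ifit1 was at 452 and 631 CPM in T-like cells and at 1.35 and 4.23 CPM in Krt8-positive cells. In the latter Ifit2 was at 3.01 and 3.33 CPM, Ifit3 at 0.644 and 0.714 CPM and Ifit3b at 0.0898 and 0.0971 CPM. T-like cells thus carried the highest level of Ifit1 in both libraries. Reads that fit both Ifit3 and Ifit3b could be split between them or left out, so their values are uncertain.

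Of the antiviral effectors besides Bst2, Rsad2, which encodes viperin, an enzyme that makes a chain-ending nucleotide, was at 2.32 and 2.82 CPM in Krt8-positive cells, while neutrophil-like cells had 87.3 and 157 CPM and monocyte-like cells 84.1 and 89.1 CPM. Cmpk2, its neighbour on chromosome 12, was at 0.968 and 0.845 CPM in Krt8-positive cells. The OAS genes make 2-5A, the signal that switches on RNase L, or related proteins that do not. Their most abundant member was Oasl2 in neutrophil-like cells (67.1 and 90.3 CPM) and in Krt8-positive cells (3.68 and 4.14 CPM), and Oasl1 in macrophage-like cells (44.3 and 62.2 CPM). The transcription factor genes Irf7, Irf9 and Stat2 were at 1.96 and 1.91, 5.23 and 4.94, and 7.28 and 6.63 CPM in Krt8-positive cells. Monocyte-like cells held Irf7 at 40.9 and 35.8 CPM.

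Among sensors, Eif2ak2, the gene of the double-stranded RNA-activated kinase PKR, ranged over the classes from 12.2 to 36.4 CPM in the control and from 12.1 to 39.7 CPM in the PKCi library. It was at 25.2 and 24.6 CPM in Krt8-positive and 23.4 and 21.9 CPM in monocyte-like cells. Ifi204 and Ifi205, of the DNA-sensing Ifi200 family, were at 162 and 83.3 CPM and at 58.5 and 25.3 CPM in monocyte-like cells. Ifi205 reached 115 and 509 CPM in fibroblast-like cells and 7.50 and 12.2 CPM in Krt8-positive cells. Family members lie close together on chromosome 1 and resemble each other, so UMIs of one may have been counted for another. Parp9 and its partner Dtx3l, a ubiquitin ligase, lay at 11.6 and 11.1 CPM and at 10.1 and 10.4 CPM in Krt8-positive cells. They overlap by 682 bases on opposite strands. Ifi27l2a, a small membrane protein gene, had only 2.17 and 1.87 CPM in Krt8-positive cells; T-like cells had 654 and 537 CPM of it, and monocyte-like cells 566 and 372 CPM.

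Levels in Krt8-positive cells were set beside the level that free RNA from leukocytes can leave in a droplet. A list of 20 monocyte and macrophage genes (Lyz2, Tyrobp, C1qa and others) stood in Krt8-positive cells at a median of 0.279% and 0.384% of its level in monocyte-like cells, and 1 gene of the 20, Ifi30, was above 10%. The members stood at a median of 12.6% and 22.0%, and 18 of 30 in the control and 22 of 30 in the PKCi library were above 10%. The same share over all genes was not computed. Monocyte-like cells were the highest class for only 1 member in the control library, and a low level there raises the percent. In the control, Ifi44 stood at 92.6% of its monocyte-like level but at 1.16% of its level in the highest class. Bst2 (241% and 299%) and Eif2ak2 (108% and 113%) were higher in Krt8-positive than in monocyte-like cells. Ifi27l2a, at 0.383% and 0.503%, was the one member near the median of the free RNA list when set against monocyte-like cells. Set against T-like cells, their highest class, Ifit1 stood at 0.298% and 0.670% and Ifit3b at 0.675% and 0.564%. Bst2 stood at 72.2% and 76.3% of its highest class. The part of free RNA from other classes in the member levels was not tested. The UMIs of Ifi27l2a in Krt8-positive cells were at a level that free RNA also reached.

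Between the libraries, 27 of 30 members of Krt8-positive cells differed by less than 1.5-fold, and Ifit1, Oasl1 and Ifi205 were higher in the PKCi library. Of 30 members, 3 were at least 1.5-fold higher in the PKCi library and none was at least 1.5-fold lower; over all 17641 genes with at least 20 UMIs the shares past that fold were 5.44% higher and 6.87% lower. The median log2 ratio of the members was 0.09, against -0.02 over all genes. Ifit1 had 270 UMIs in 63 control cells and 871 UMIs in 137 PKCi cells, that is 1.35 CPM (1.19 to 1.52) and 4.23 CPM (3.95 to 4.52), a ratio of 3.14 (2.73 to 3.61). Oasl1 was at 1.62 and 2.71 CPM with a ratio of 1.68 (1.46 to 1.93), and Ifi205 at 7.50 and 12.2 CPM, a ratio of 1.63 (1.53 to 1.74). These 3 were the only members of this class past the fold. Nearest to the fold without reaching it were Ifi204, at a ratio of 1.25, and Dhx58, the gene of the RNA helicase LGP2, at 0.715. Isg15 was at 1.19 and Rsad2 at 1.21. Clusters within this class differed in size between the libraries. The cluster led by Adm, Agbl3 and Lcn2 had 459 and 105 cells, and that led by Ly6c1, Id3 and Cxcl10 380 and 657. Ifit1 was at 3.04 and 20.9 CPM in the cluster led by Ptn, Sema3a and Dlg2. In that led by Csf2, Gm16685 and Gm4876 it was at 2.95 and 2.90 CPM. The part of the cluster mix in the member ratios was not tested.

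Monocyte-like cells differed the other way. The sum of the 30 members was 1592 CPM (1558 to 1627) without and 1147 CPM (1113 to 1181) with PKCi, and the ratio 0.720 (0.694 to 0.747). Of 28 measured members 6 were at least 1.5-fold lower and 1 was higher, against 8.35% and 13.6% of the 10587 genes measured in these cells; with at most 10% mitochondrial UMIs 12 were lower. The median log2 ratio was -0.21, against 0.13 over all genes. Ifi205 was at 58.5 and 25.3 CPM with a ratio of 0.433 (0.341 to 0.546), Ifi204 at 162 and 83.3 CPM (0.513, 0.449 to 0.584) and Isg15 at 120 and 65.1 CPM (0.543, 0.467 to 0.630). Ifi204 had a UMI in 345 of 565 control cells and in 129 of 480 PKCi cells. Oasl1 (0.610), Parp14, an ADP-ribosyltransferase gene (0.618), and Ifi27l2a (0.657) completed the 6. The 1 higher member, Cmpk2, stood at 3.39 and 14.0 CPM, with a ratio of 4.11 (2.37 to 7.46), with 18 UMIs in 15 cells and 53 UMIs in 15 cells, 26.4% of the latter in 1 cell. Oasl2, at 0.687, was the member just short of the fold.

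The monocyte-like cells of the libraries also differed in marker genes. The monocyte gene Ly6c2 was at 228 and 111 CPM and Plac8 at 990 and 495 CPM, while Ccr2 was at 242 and 338 CPM and Vcan at 295 and 556 CPM. The 8 macrophage markers summed to 2840 and 1667 CPM. Median depth was 7850 and 6650.5 UMIs per cell. The part of these differences in the lower member levels was not tested. When monocyte-like and macrophage-like cells were pooled, the members summed to 1405 CPM (1380 to 1431) and 1153 CPM (1133 to 1174), and the log2 ratios of Oasl1 and Parp14 were 0.51 and -0.05.

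In macrophage-like cells the sum was 1096 CPM (1060 to 1133) and 1157 CPM (1131 to 1183). Here 8 of 29 measured members were at least 1.5-fold higher in the PKCi library and none lower, against 11.5% and 8.53% of 11172 genes, and the median log2 ratio was 0.14 against 0.02. Ifit2 was at 9.36 and 29.5 CPM with a ratio of 3.15 (2.14 to 4.79), with 28.9% of the PKCi UMIs and 40% of the control UMIs in 1 cell. Cmpk2 (1.95), Ifi205 (1.87), Irf7 (1.70), Oasl2 (1.64) and Ifit1 (1.54) also had ratio intervals above 1. Oas3 stood at 1.72 with an interval that included 1. Ifi44 had 0 UMIs in the control and 21 in 11 PKCi cells, at least 3.36-fold higher against a floor of 3 UMIs. Dtx3l, at 20.3 and 30.5 CPM, lay just under the fold, which was judged after 0.5 UMI had been added to each library (log2 ratio 0.58). Bst2 was lower, at 239 and 189 CPM, a ratio of 0.788. With coarser clusters (Leiden resolution 0.5), which hold monocyte-like and macrophage-like cells in 1 class, 3 members were higher and 5 lower, and Oasl2, Irf7 and Ifi205 changed direction, while the log2 ratio of Ifit1 was 0.03. Calls were also lost in classes made at the finer resolution: with at most 10% mitochondrial UMIs the log2 ratios of Ifit1, Irf7 and Oasl2 were 0.18, 0.14 and 0.49, and with interferon genes in the clustering that of Ifit1 was 0.14.

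Neutrophil-like cells gave 1192 CPM (1141 to 1245) and 1530 CPM (1452 to 1610). Of 23 measured members 4 were at least 1.5-fold higher and 1 was lower, beside 30.2% and 8.37% of 8880 genes. The count of 4 moved between 2 and 11 with other settings, to 11 with at most 10% mitochondrial UMIs, 10 without doublet removal and 8 with interferon genes in the clustering. The higher members were Ifit1 (16.0 and 47.3 CPM, ratio 2.95), Ifit3 (12 and 31 UMIs), Rsad2 (87.3 and 157 CPM, ratio 1.79) and Isg15 (140 and 229 CPM, ratio 1.64). Of the PKCi UMIs of Rsad2, 36.2% lay in 1 cell, and without the cell with most UMIs in each library the log2 ratios of Rsad2 and Isg15 were 0.33 and 0.55, below the fold. These cells were shallow, with medians of 3420 and 2061 UMIs, and their Krt8 differed as given above; the part of either in the ratios was not tested.

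**Figure D2:**
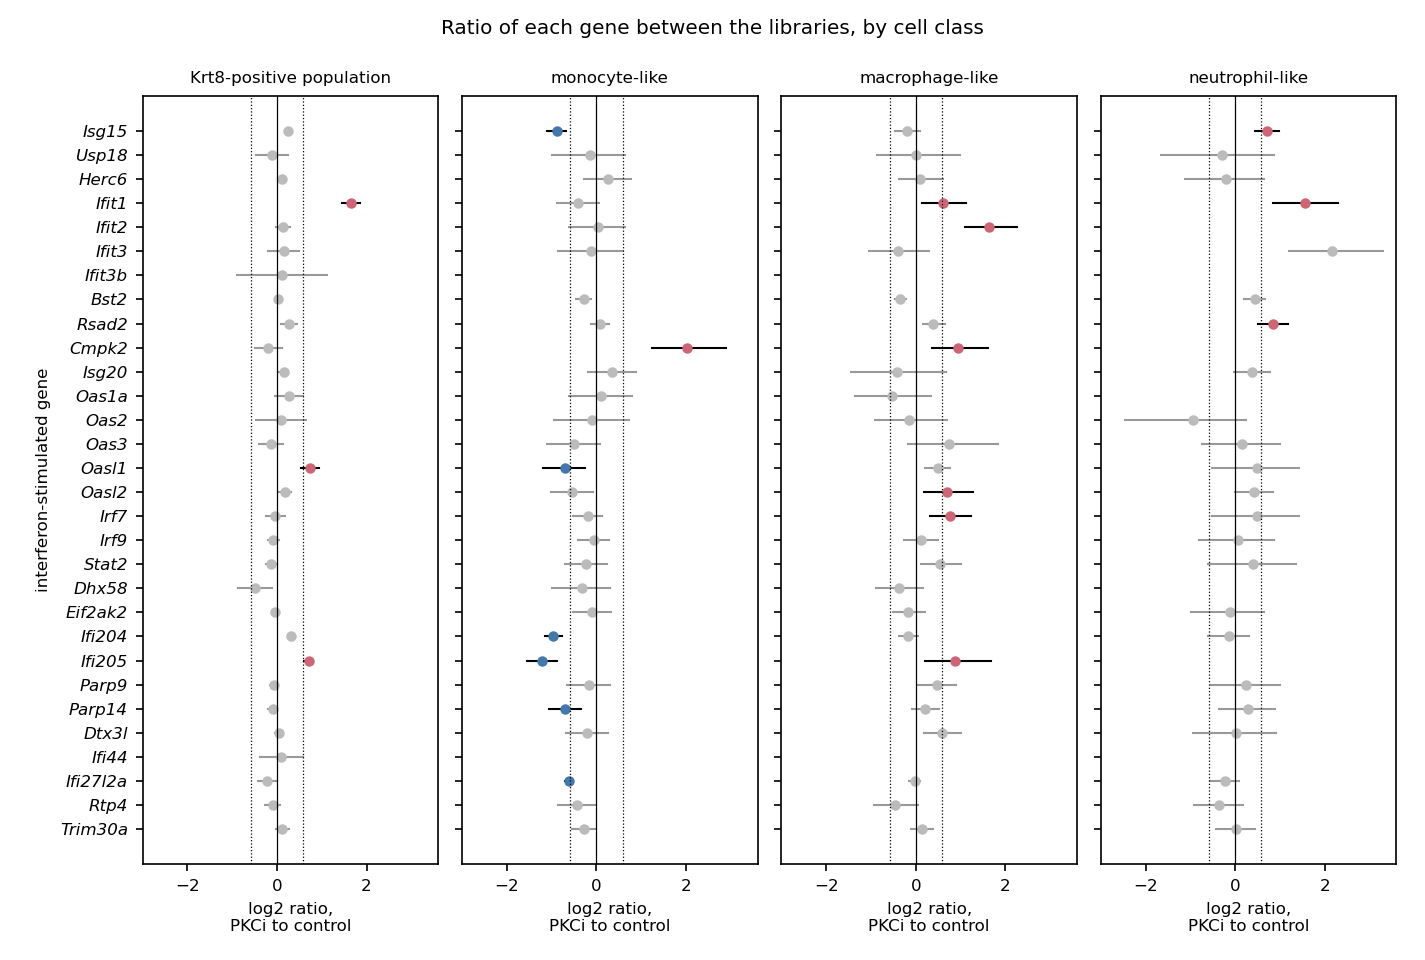
Log2 ratio of PKCi to control level for each member (rows) with its 95% counting interval in the 4 classes compared (panels). Coloured points have at least 50 UMIs, lie at or past 1.5-fold (dotted lines) and have intervals apart from 0, red for higher and blue for lower; members under 20 UMIs and Ifi44 of macrophage-like cells, at 0 UMIs in the control, are not drawn, and Ifi205 is red in Krt8-positive and macrophage-like cells and blue in monocyte-like cells.

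The sums hide how the members were spread over cells. Each cell with at least 5000 UMIs was thinned to 5000, and the members with a UMI were counted. Of Krt8-positive cells 12.4% and 11.0% held no member and 48.4% and 46.0% held 1. Of these cells 2.14% in the control (103 of 4804; 1.75% to 2.59%) and 2.36% in the PKCi library (122 of 5160; 1.97% to 2.82%) held at least 5. Without thinning the shares were 47.5% and 48.0%. At least 10 members were held by 13 and 15 cells, and the fullest cells held 19 and 20. The shares at 5 members were close, and their intervals overlapped. For the free RNA list of 20 genes, 0.291% and 0.504% of the same cells held at least 5. The lists differ in size and level, so these shares are not on the same scale. Bst2 stood at 377 and 385 CPM in these cells, and the highest gene of the free RNA list, Ifi30, at 54.0 and 61.0 CPM.

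Shares were higher in most other named classes, though NK-like cells, at 4.35% of 23 and 16.7% of 42, had a control interval (up to 21.9%) that took in the share of Krt8-positive cells. Of monocyte-like cells 28.2% without PKCi (140 of 497; 24.3% to 32.3%) and 14.6% with it (51 of 350; 11.0% to 18.7%) held at least 5 members, with intervals apart. At least 10 members were held by 6.44% (32 of 497) and 5.71% (20 of 350) of them, so the shares lay closer at that count and their intervals overlapped. Macrophage-like cells had 18.2% (28 of 154) and 21.1% (98 of 465) with at least 5. T-like cells had 27.6% of 29 and 25.6% of 43, dendritic-like cells 24.0% of 25 and 23.9% of 46, and endothelial-like cells 50% of 18 and 32.4% of 34. Of the 65 and 119 T-like cells only these 29 and 43 had at least 5000 UMIs, so the T-like shares leave out the shallower cells. In fibroblast-like cells, which were few and differed in depth and Krt8 between the libraries, the shares were 14.0% of 57 and 65.4% of 26; they are given without a comparison. Thinning left out 224 of 295 and 169 of 188 neutrophil-like cells, so their 22.5% and 10.5% rest on 71 and 19 cells.

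**Figure D3:**
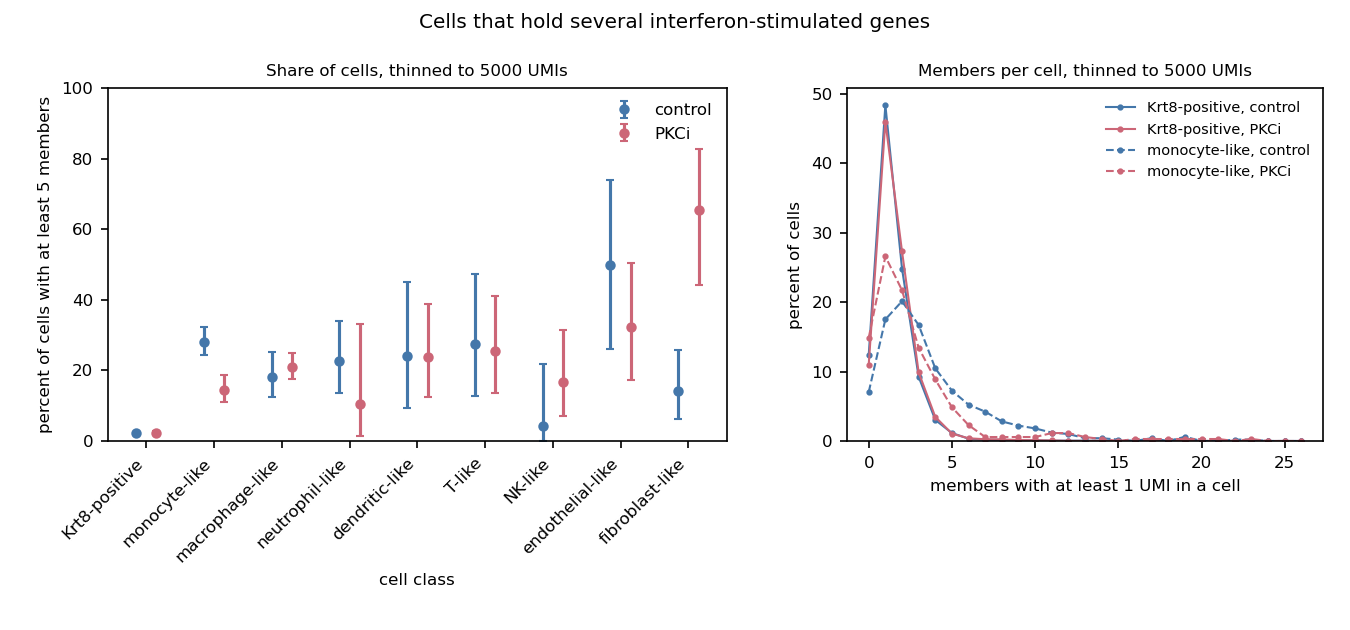
Left, percent of cells with at least 5 members after thinning to 5000 UMIs (y) by cell class (x) and library, with exact 95% intervals; right, percent of cells (y) by members held (x) in Krt8-positive and monocyte-like cells. Krt8-positive cells stay near 2% in both libraries (2.14% and 2.36%), and monocyte-like cells lie at 28.2% and 14.6%.

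Members were held together. Each member was looked for in Krt8-positive cells that held at least 4 of the others and in those that held at most 1 of the others. In both libraries 25 of 30 members had a higher share in the first set with intervals apart, against 0 and 1 of the 20 genes of the free RNA list. Genes of that list were held by 0% (Ms4a6c) to 26.1% (Ifi30) of control cells with at least 4 members, and intervals part less easily at low shares. The same count over all genes was not made, so how far other genes follow the members in this way is not known. Isg15 was held by 24.3% and 2.94% of the control cells of these sets and by 31.5% and 4.04% of the PKCi cells. Ifit1 was held by 5.65% and 0.103% in the control and 11.5% and 0.0680% in the PKCi library. Rsad2 stood at 7.82% and 0.240%, and at 11.0% and 0.474%. These shares describe cells of 1 library each and are not replicates. Isg20, an exonuclease gene, did not follow: it was held by 8.14% and 4.14% in the control and 4.98% and 5.15% in the PKCi library. Intervals also overlapped for Ifit3b and Ifi27l2a in both libraries, for Ifit2 and Oas2 in the control and for Eif2ak2 and Ifi44 in the PKCi library. In monocyte-like cells 18 and 23 of 30 members had intervals apart, and in macrophage-like cells 1 and 22, the former in 154 control cells; of the free RNA list 2 and 3 of 20 genes had them in monocyte-like and 0 and 2 in macrophage-like cells.

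**Figure D4:**
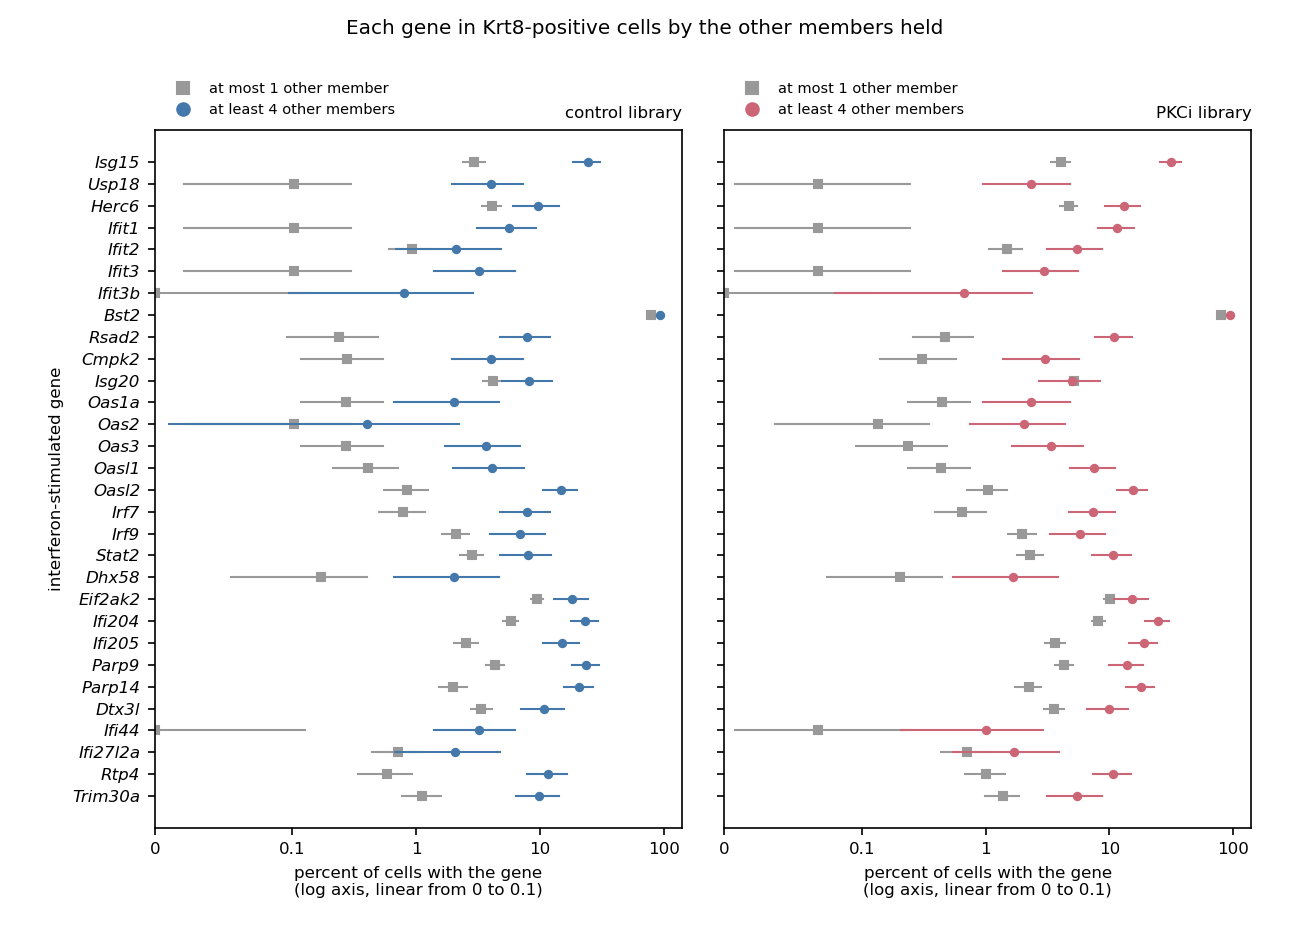
Percent of Krt8-positive cells with each member (rows; x axis logarithmic, linear from 0 to 0.1) among cells that hold at least 4 (circles) or at most 1 (squares) of the other members, with exact 95% intervals, in the control (left) and PKCi library (right). Circles lie to the right of squares for 25 of 30 members with intervals apart, and Isg20 overlaps in both.

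The Krt8-positive cells with at least 5 members were then compared with those that held none, in genes that are no members and so took no part in choosing the cells. The sets had 103 and 594 control cells and 122 and 567 PKCi cells, and the cells with more members were the shallower, with median depths of 29325 against 42920.5 and 28730.5 against 40500 UMIs. Genes with at least 20 UMIs over both sets count as measured, so a gene could pass mainly through the set where it was high. Of 32 and 33 measured further interferon-stimulated genes, 30 and 29 were at least 1.5-fold higher, against 14.9% and 14.6% of all genes, with median ratios of 5.53 and 4.97. Ifitm3, which blocks entry of viruses, was at 965 against 227 CPM and at 748 against 165 CPM. Of these further genes, Slfn5 went the other way. It had 41 UMIs in cells without members and 0 in cells with at least 5 in the control library, and 35 and 2 in the PKCi library. The nucleic acid sensor gene Zbp1, which belongs to the list of interferon induction below, was at 0.509 and 40.2 CPM and at 0.323 and 26.9 CPM.

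All 14 measured genes of the interferon gamma list were higher in both libraries, with median ratios of 21.6 and 24.8. Some passed the UMI count mainly through the cells with at least 5 members, such as Gbp5, with 8 and 88 UMIs in the control sets. Tgtp1, Tgtp2 and Ciita fell short of that count. Ciita had 6 UMIs in cells without members and 3 in the others in the control, and 5 and 0 in the PKCi library. Gbp2, a guanylate-binding protein gene, was at 5.17 and 99.2 CPM and at 3.47 and 106 CPM. The chemokine gene Cxcl10, whose protein draws T cells, was at 20.2 and 464 CPM in the control and at 41.0 and 1069 CPM in the PKCi library. The cells with many type I members thus also held genes counted as interferon gamma targets, a set that shares response elements with the members. Receptor genes differed less: Ifnar1 was at 19.4 and 31.1 CPM and at 23.1 and 30.7 CPM, and Ifngr2 at 43.9 and 53.5 CPM and at 47.0 and 52.4 CPM. Of 16 measured genes of the list of interferon induction (sensors, adaptors and transcription factors), 11 and 10 were at least 1.5-fold higher, with median ratios of 1.83 and 2.27. The RNA sensor genes Ifih1 and Ddx58 had ratios of 11.2 and 34.2 and of 7.40 and 8.51, the DNA sensor gene Cgas 1.05 and 0.784, and Mavs, an adaptor of the RNA sensors, 0.925 and 0.992. Of the free RNA list 3 of 18 and 6 of 19 measured genes were at least 1.5-fold higher, with median ratios of 1.00 and 1.19. C1qa was at 6.38 CPM in cells without members and 11.9 CPM in those with at least 5 in the PKCi library; the part of free RNA or doublets in these sets was not tested. With the Krt8-positive cells that hold at least 3 genes of that list left out, 30 and 29 of the further genes and all 14 gamma genes were past the fold, a filter that covers monocyte and macrophage genes and no genes of T-like cells.

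**Figure D5:**
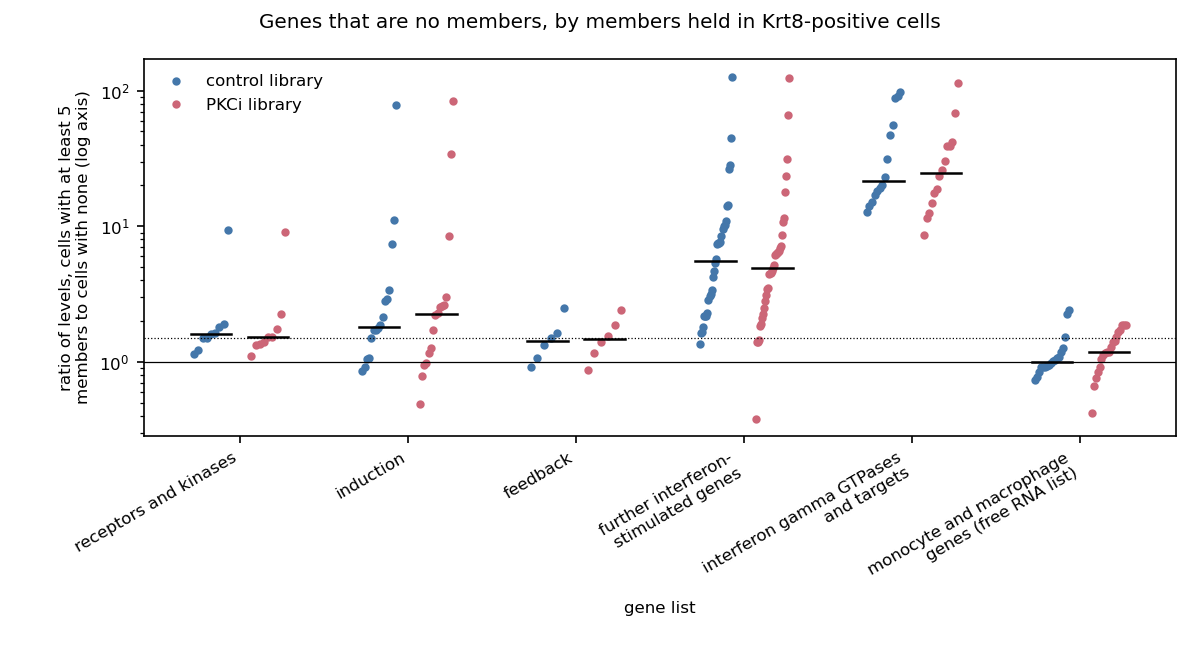
Ratio of the level in Krt8-positive cells with at least 5 members to the level in those with none (y, log axis) for genes of 6 lists (x) in each library; points are genes, black bars list medians, the dotted line 1.5-fold, and Slfn5 of the control library, at 0 UMIs in cells with at least 5 members, is not drawn. The medians are 5.53 and 4.97 for further interferon-stimulated genes and 21.6 and 24.8 for the gamma list, against 1.00 and 1.19 for monocyte and macrophage genes.

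The member values by the same sets chose the cells and are a description only. Between the libraries, Ifit1 in the cells with at least 5 members was at 66.1 and 185 CPM, and these cells held 227 of the 270 control UMIs and 683 of the 871 PKCi UMIs of Ifit1. Isg15 was at 322 and 390 CPM, Rsad2 at 85.3 and 100 CPM, Oasl1 at 34.3 and 63.0 CPM and Ifi205 at 64.0 and 120 CPM in these cells. Oas1a, at 13.4 and 8.96 CPM, and Parp9, at 71.3 and 63.3 CPM, were lower in the PKCi library.

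Cells with several members were found in every cluster of the Krt8-positive population in at least 1 library, and most often in 2 clusters. The cluster led by Ptn, Sema3a, Dlg2 and the member Ifi205 held 37 of 477 such cells in the control (7.76%; 5.52% to 10.5%) and 52 of 603 in the PKCi library (8.62%; 6.51% to 11.2%). Ifi205 was at 44.1 and 68.9 CPM there, and Bst2 at 625 and 549 CPM. The cluster led by Ly6c1, Id3 and Cxcl10 held 4.21% and 4.59%. In no other cluster did the share exceed 3.81%. The members were left out of clustering, yet other genes that vary with them were not.

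Interferon genes themselves were rare. Ifnb1, the gene of interferon beta, had 2 UMIs in 2 control Krt8-positive cells and 39 UMIs in 10 PKCi Krt8-positive cells, 17 of them in 1 cell, and 6 of the 10 cells held at least 5 members. In monocyte-like cells it had 18 UMIs in 6 control cells and 1 UMI in 1 PKCi cell. Dendritic-like cells had 4 UMIs in 1 control cell and 9 UMIs in 2 PKCi cells, and T-like cells 7 UMIs in 1 PKCi cell. These counts rest on single cells and are given as counts only. Ifnz had 11 and 9 UMIs in Krt8-positive cells, and every other type I interferon gene of the list had at most 3 UMIs in any named class and library. Ifng, the gene of interferon gamma, had 76 and 89 UMIs in 16 and 33 T-like cells and 21 and 33 UMIs in 7 and 11 NK-like cells.

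Of the other pathway genes, none of the 9 measured receptor and kinase genes, 17 induction genes and 6 feedback genes was past 1.5-fold between the libraries in Krt8-positive cells. Ifnar1 was at 22.5 and 26.8 CPM there. Of the interferon gamma list, 3 of 17 genes were at least 1.5-fold lower (Gbp6, Iigp1 and Cxcl9) and 1 higher (Cxcl10, 52.3 and 96.8 CPM), with a median log2 ratio of -0.33. The free RNA list was also higher in the PKCi library in these cells, 8 of 20 genes past the fold and none lower, with a median log2 ratio of 0.42; its part in the member ratios was not tested. In monocyte-like cells 7 of 14 genes of the interferon gamma list were lower and none higher, among them Cxcl9 at 112 and 18.4 CPM and Gbp2 at 107 and 49.0 CPM. The feedback gene Socs1, which restrains JAK kinases, was at 37.9 and 17.7 CPM in these cells, and Irf1 at 91.8 and 62.7 CPM. In macrophage-like cells 5 of 16 genes of the gamma list were higher and 1, Cxcl9, was lower.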

How the data were processed

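The authors deposited filtered matrices of raw UMI counts for each library. Per the file headers these come from Cell Ranger 7.0.0, and the submitters' processing notes name GRCm38 and Seurat. The count matrices were used as deposited, at totals of 222641855 and 229219749 UMIs. Barcodes with under 500 genes (247 and 200) or over 20% mitochondrial UMIs (61 and 47) and those with a Scrublet score of at least 0.3 (111 and 132, or 1.74% and 1.83% of those scored) were left out; the automatic Scrublet threshold was unstable, and 0.3 was set after seeing the data. With scanpy 1.11.5, 2000 variable genes, 30 components, 15 neighbours and Leiden resolution 1.0 were used on both libraries together, without the members and the other interferon lists. A leukocyte, endothelial or fibroblast cluster was named from markers at a mean relative level of at least 0.35, among other rules. Clusters of the Krt8-positive population scored below that and were named with limits of 250 CPM for Krt8 and 10 CPM for Ptprc. Clusters that did not meet the rules (173 and 236 cells) stay unnamed. They include clusters at 0.766 for mast, 1 for red cell and 1 for pericyte markers. Naming rules were set after seeing the data. UMIs were summed per class and library and given as CPM with exact Poisson intervals, ratios with exact conditional intervals and shares with exact Clopper-Pearson intervals. Ratios were given in classes with at least 100 cells per library and genes with at least 20 UMIs. Log2 ratios, their medians and calls past 1.5-fold used 0.5 UMI added to each library. Values in both libraries were given for members with at least 50 UMIs, a ratio past 1.5-fold and counting intervals apart, for the most abundant member of each role, and for those next to the fold. The members and lists were chosen with earlier results of these data known. Promoter sequences are from RefSeq (GRCm38.p6). Ratio and thinning code was tested on simulated data. Reads were not used here. Values of 1 pathway gene are not reported here.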

Additional observations from a re-analysis of the deposited data

Results flagged for a closer look

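The members Ifi205, Isg15 and Oasl1 stood at least 1.5-fold apart in opposite directions in different classes, with 1 library per group, and the difference between the classes was not tested. Ifi205 had PKCi to control ratios of 1.63 in Krt8-positive and 1.87 in macrophage-like cells and of 0.433 in monocyte-like cells. Isg15 had ratios of 0.543 in monocyte-like and 1.64 in neutrophil-like cells. Oasl1 had ratios of 1.68 in Krt8-positive and 0.610 in monocyte-like cells. With monocyte-like and macrophage-like cells together, the log2 ratio of Oasl1 was 0.51, and with coarser clusters that of Ifi205 in macrophage-like cells was -1.23.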

How the results depend on the processing

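No paired analysis was possible because each group has 1 library. Of 120 recomputed counts and shares, 92 stayed within 1.5 times the reported count or within the interval of the reported share. Members at least 1.5-fold higher in monocyte-like cells, 1 as reported, were 2 with at most 10% mitochondrial UMIs, 0 with at least 100 UMIs and 3 with macrophage-like cells added; the lower ones, 6 as reported, were 12 with at most 10% mitochondrial UMIs. In macrophage-like cells the higher ones, 8 as reported, were 3 at Leiden resolution 0.5 and 13 without the cell with most UMIs of each gene, and the lower ones, 0 as reported, were 5 at resolution 0.5 and 1 with at most 10% mitochondrial UMIs, with interferon genes in the clustering, or without the top cell. In neutrophil-like cells the higher ones, 4 as reported, were 10 without doublet removal, 11 with at most 10% mitochondrial UMIs, 8 with interferon genes in the clustering, and 2 each with the median gene ratio as the scale, at least 100 UMIs, or without the top cell; the lower ones were 2 with the median scale and 0 with at least 100 UMIs. That scale shifts log2 ratios by 0.13 in monocyte-like and 0.26 in neutrophil-like cells. Shares of cells with at least 5 members thinned to 3000 UMIs were 0.706% and 1.04% in Krt8-positive, 17.6% in control monocyte-like, and 11.3% and 10.9% in macrophage-like cells. They were 32.7% in control monocyte-like, 36.6% in control and 100% in PKCi neutrophil-like cells with at most 10% mitochondrial UMIs, 50% in PKCi neutrophil-like cells with interferon genes in the clustering, and 25.4% in control macrophage-like cells at resolution 0.5. PKCi neutrophil-like cells numbered 114 and 138 in these 2 settings. Only those with at least 5000 UMIs count in the shares, and how many these were is not given here. Direction changed for Oasl1 of monocyte-like cells with macrophage-like cells added (log2 ratio 0.51) and, at resolution 0.5, for Oasl2 (-0.058), Irf7 (-0.076) and Ifi205 (-1.23) of macrophage-like cells. The cause was not tested; each mitochondrial or clustering setting regrouped the cells (118 control neutrophil-like cells against 295, and 440 control monocyte-like cells against 565, with at most 10% mitochondrial UMIs). The settings with macrophage-like cells added and without top cells or free RNA cells were chosen after seeing the data.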

Other observations

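In fibroblast-like cells, which were led by Col1a2, Col1a1 and Rarres2 and numbered 61 and 28, Ifi27l2a was at 66.8 CPM in the control and 674 CPM in the PKCi library, Ifi205 at 115 and 509 CPM, Ifi204 at 43.2 and 182 CPM and Isg15 at 20.4 and 162 CPM. Median depth was 40688 and 13689 UMIs and Krt8 212 and 111 CPM in these libraries, and the part of Krt8-positive cells in this class was not tested. In endothelial-like cells (34 and 50) Ifi44 was at 30.02 and 26.4 CPM, above every other class in both libraries. In T-like cells Herc6 was at 73.2 and 157 CPM and Trim30a at 102 and 68.9 CPM.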
